A study of Homo sapiens with 21 samples.

Results

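The human caspases CASP1, CASP2, CASP4, CASP6, CASP8, CASP9 and CASP10 were followed by their 3′ transcript counts in MV4-11 cells, a human leukaemia line with a KMT2A rearrangement. They were chosen by name, through the Ensembl IDs of the count table, and are 7 of its 54042 rows. All 7 passed the filter on low counts, which kept 11610 genes. There were 21 libraries in 7 groups of 3. Wild type cells were given the solvent DMSO, or ironomycin (AM5, a derivative of salinomycin) for 6 h or 24 h. Cells with a knockout of HK2 (hexokinase 2, an enzyme of glucose use) and cells with a knockout of PGP (phosphoglycolate phosphatase) were given ironomycin for 24 h, or DMSO. All groups came from the same line and medium, and the labels say neither how long DMSO was applied nor whether a knockout was a single clone. Time in culture and ironomycin therefore cannot be told apart. The title of the series names mitochondrial iron and a cell death that depends on BAX or BAK, and the comparisons below ask how caspase transcripts moved with ironomycin, time and genotype. Total counts were 3829274 to 6069264 per library, with a median of 4823817. Levels are given in CPM (counts scaled to a common library size, with TMM factors), and 3 counts made 0.494 to 0.783 CPM. Replicates are not said to be separate cultures, so p-values measure the spread between these libraries, which may be technical.

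Caspases are proteases that cut proteins after aspartate and are made as inactive precursors. Initiator caspases are switched on by gathering on a platform: CASP9 on the apoptosome that forms when mitochondria release cytochrome c under the control of BAX and BAK, CASP8 and CASP10 on death receptors, and CASP2 on the PIDDosome. Executioner caspases such as CASP6 then cut cellular proteins, among them the nuclear lamins. The inflammatory caspases CASP1 and CASP4 cut gasdermin D, CASP1 on inflammasomes and CASP4 on binding bacterial lipopolysaccharide. Because caspases are switched on as proteins, from inactive precursors, the transcript levels given here do not measure their activity. In a bulk library, fewer cells of a kind and less RNA per cell cannot be told apart.

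The promoters of the caspases that moved most and least at 24 h differ in base composition, and 1 of them holds the motifs of interferon signalling, so 4 are shown. RefSeq (GRCh38.p14) promoter windows, which run from 250 bases before a transcript start to 50 after it, were matched by symbol for 5 of the 7 genes and gave 9 windows. CASP1 and CASP10 had none. Each stretch below is the first listed window of its gene up to 10 bases past the start, 5′ to 3′ on the gene's own strand, and capitals mark the only motif matches. The stretches are chr1:15524206-15524465 (minus strand), chr4:109703436-109703695 (minus), chr2:201233213-201233472 (plus) and chr11:104968565-104968824 (minus).
CASP9: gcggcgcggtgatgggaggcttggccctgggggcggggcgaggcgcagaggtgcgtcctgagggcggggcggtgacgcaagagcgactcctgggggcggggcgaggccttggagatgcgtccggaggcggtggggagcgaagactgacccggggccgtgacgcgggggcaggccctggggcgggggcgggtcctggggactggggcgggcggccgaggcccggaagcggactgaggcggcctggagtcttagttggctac
CASP6: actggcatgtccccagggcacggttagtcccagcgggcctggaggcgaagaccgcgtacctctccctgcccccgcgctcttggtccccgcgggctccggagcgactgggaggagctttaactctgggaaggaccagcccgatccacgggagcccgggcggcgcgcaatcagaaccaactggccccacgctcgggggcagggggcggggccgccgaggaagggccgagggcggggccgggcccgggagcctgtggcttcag
CASP8: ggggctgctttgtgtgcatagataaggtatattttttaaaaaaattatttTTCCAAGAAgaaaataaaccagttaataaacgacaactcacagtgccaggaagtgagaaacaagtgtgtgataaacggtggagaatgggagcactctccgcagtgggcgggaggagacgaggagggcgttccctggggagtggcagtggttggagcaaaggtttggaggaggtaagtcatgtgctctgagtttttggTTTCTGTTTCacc
CASP4: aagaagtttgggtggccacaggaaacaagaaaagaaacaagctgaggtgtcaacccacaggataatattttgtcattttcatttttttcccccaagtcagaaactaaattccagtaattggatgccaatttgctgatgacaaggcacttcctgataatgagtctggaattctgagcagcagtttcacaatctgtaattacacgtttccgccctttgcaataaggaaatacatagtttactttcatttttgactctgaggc

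The first listed windows of CASP9 and CASP6 were rich in G and C, at 76.0% and 72.0%, with 36 and 28 CpG pairs in 300 bases. The other window of CASP9 was at 71.3% with 30 pairs. For CASP2 the first listed window was alike, at 71.3% with 35 pairs, but its other window was at 43.0% with 4 pairs. The first listed windows of CASP8 and CASP4 were lower, at 46.3% with 6 pairs and 39.7% with 3 pairs. The other windows of CASP8 were at 43.0% with 5 pairs and 54.3% with 6 pairs. Over all 35116 windows the median was 58.7% with 14 pairs, so both compositions occurred among the genes that rose, CASP9 and CASP4. Motifs were searched on both strands: GAAANNGAAA, the interferon response element, present in 3.57% of all windows, TTCNNNGAA, the element bound by STAT dimers, present in 7.66%, and TGATGNAA, the amino acid response element, present in 3.62%. In the CASP8 window, TTCCAAGAA stood at bases 51 to 59, and TTTCTGTTTC, the first motif read on the other strand, at bases 248 to 257, across the transcript start. These letters were in none of the other 8 windows, which says nothing of the factors themselves.

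Cells exposed to ironomycin for 24 h held more CASP9, CASP10 and CASP4 transcript and less CASP6, CASP1 and CASP2 transcript than cells in DMSO, averaged over the 3 genotypes. The order did not follow the classes. Among the 4 initiators, CASP9 and CASP10 rose, CASP2 fell and CASP8 was not called. Among the 2 inflammatory caspases, CASP4 rose and CASP1 fell. In this mean response of the 3 genotypes, a contrast added after the data were seen, CASP9 changed by 0.98 ± 0.24 (log2 fold change ± SE, edgeR adjusted p = 0.00124) and CASP10 by 0.65 ± 0.12 (8.58e-05). CASP4 changed by 0.26 ± 0.06 (0.00186). On the falling side, CASP6 changed by -0.81 ± 0.17 (0.000421), CASP1 by -0.42 ± 0.11 (0.00209) and CASP2 by -0.34 ± 0.08 (0.00085), all by the same edgeR test. CASP8 changed by -0.18 ± 0.14 (edgeR adjusted p = 0.299). Of the 7 caspases 6 were called, 3 higher and 3 lower, where 53.8% of all tested genes were called by this contrast, 28.8% higher and 25% lower. The largest called change was a 1.98-fold rise of CASP9 and the smallest a 1.19-fold rise of CASP4. The same 6 of 7 calls were reached with any 1 library of the 24 h and DMSO groups left out. The highest edgeR adjusted p among them was 0.0107, for CASP4 without DMSO replicate 1 of the HK2 knockout. The 6 h libraries, which share the estimate of spread, were not left out for this contrast.

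**Figure D1:**
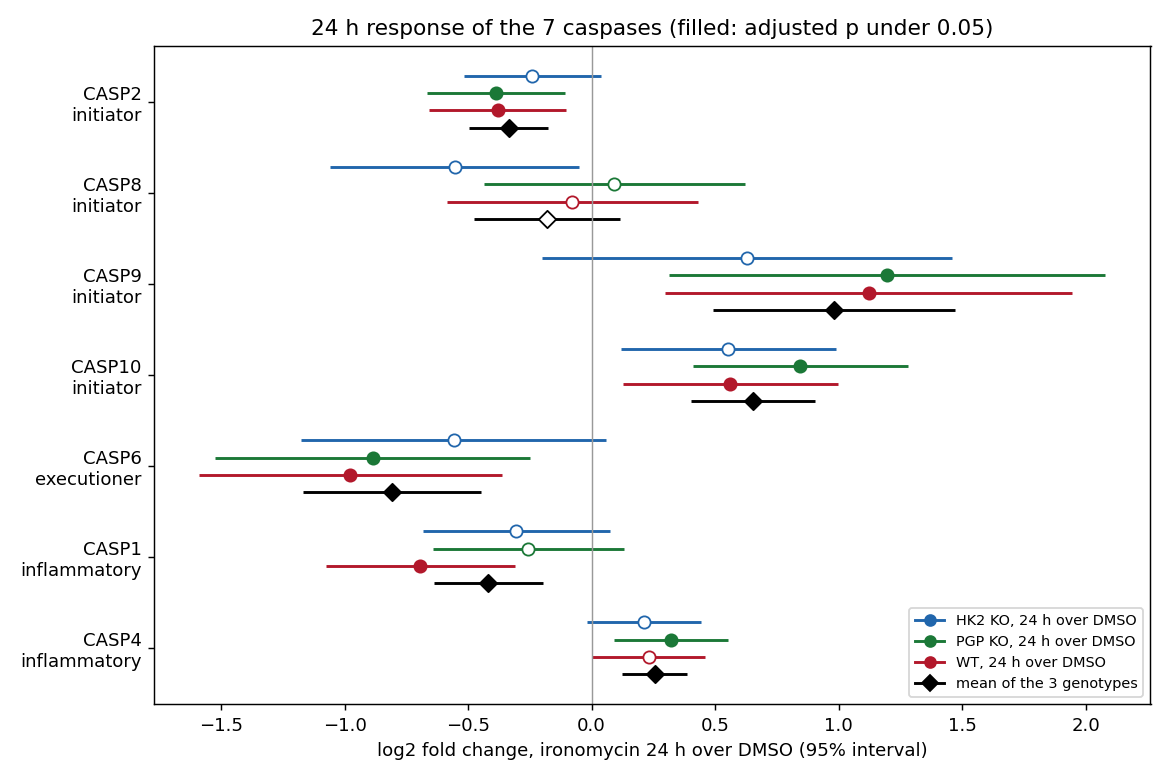
Log2 fold change of each caspase at 24 h of ironomycin against DMSO in each genotype (circles) and for the mean of the 3 genotypes (diamonds), with 95% intervals from the edgeR fit and filled marks where the adjusted p was under 0.05. CASP9, CASP10 and CASP4 lie above 0 and CASP6, CASP1 and CASP2 below 0 in all 3 genotypes, and CASP8 lies at -0.08 in wild type, -0.55 in the HK2 knockout and 0.09 in the PGP knockout.

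The calls within single genotypes were fewer and less firm. In wild type, 5 of 7 caspases were called at 24 h against DMSO, 2 higher and 3 lower, where 29.8% of tested genes were called, 15.3% higher and 14.6% lower. In the PGP knockout 5 of 7 were called, 3 higher and 2 lower, where 31.5% of tested genes were, 16.1% higher and 15.4% lower. In the HK2 knockout 0 of 7 were called by edgeR and 0 by DESeq2, where 29.4% of tested genes were called, 15.9% higher and 13.5% lower, and 2 passed an unadjusted p under 0.05, as did 39.3% of tested genes. Libraries of the treated and DMSO groups did not overlap for 6 of the 7 caspases in wild type, 6 in the PGP knockout and 4 in the HK2 knockout, as was so for 46.6% of all tested genes in wild type, 44.1% in the PGP knockout and 45.4% in the HK2 knockout. The median log2 fold change of the 7 was -0.08 in wild type, 0.09 in the PGP knockout and -0.24 in the HK2 knockout, and that of all tested genes 0.03, 0.04 and 0.03. Each genotype had its own DMSO libraries. The sign was the same in all 3 genotypes for 6 of the 7 caspases, the exception being CASP8.

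CASP9, the initiator of the mitochondrial route, had the largest changes. In wild type it stood at 7.52, 5.01 and 6.97 CPM in DMSO, 9.39, 0.655 and 11.8 CPM at 6 h, and 12.7, 16.3 and 13.6 CPM at 24 h. In the PGP knockout it stood at 13.2, 9.30 and 13.6 CPM at 24 h, against 6.42, 4.89 and 4.61 CPM in DMSO. In the HK2 knockout it stood at 12.3, 10.6 and 11.3 CPM at 24 h, against 6.47, 7.13 and 8.46 CPM in DMSO. Every library at 24 h was above every DMSO library, across genotypes too, and the 6 h group held 2 libraries above DMSO and the lowest library of all. The change at 24 h was 1.12 ± 0.40 in wild type (edgeR adjusted p = 0.0362), 1.20 ± 0.43 in the PGP knockout (0.0353) and 0.63 ± 0.40 in the HK2 knockout (0.258). The wild type call was lost without any 1 of its 6 libraries, with adjusted p between 0.0519 and 0.133, while a fit that left out all other groups, the 6 h group among them, gave 0.00114. That of the PGP knockout was kept only without its 24 h replicate 2 (0.0350) and otherwise lost, with adjusted p between 0.0505 and 0.116. The mean response kept an edgeR adjusted p of at most 0.00378 whichever library of the 24 h and DMSO groups was left out.

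CASP10, which like CASP8 is recruited to death receptors, rose with a narrower spread. In wild type it stood at 6.68, 8.14 and 6.63 CPM in DMSO, 7.04, 11.8 and 11.6 CPM at 6 h, and 9.04, 10.9 and 11.7 CPM at 24 h. The PGP knockout held 12.4, 12.8 and 15 CPM at 24 h, against 7.22, 8.07 and 7.02 CPM in DMSO. The HK2 knockout held 10.9, 11.0 and 10.2 CPM at 24 h, against 6.92, 6.11 and 8.84 CPM in DMSO. All 9 libraries at 24 h, at 9.04 to 15 CPM, were above all 9 DMSO libraries, at 6.11 to 8.84 CPM, and the PGP knockout at 24 h stood above every other group. The change at 24 h was 0.84 ± 0.21 in the PGP knockout (edgeR adjusted p = 0.00351), 0.56 ± 0.21 in wild type (0.0460) and 0.55 ± 0.21 in the HK2 knockout (0.0506). The call in the PGP knockout was kept without each library in turn. The call in wild type was kept only without its 24 h replicate 1 (edgeR adjusted p = 0.0422), and the other omissions gave 0.0571 to 0.175. It was also lost with DESeq2 (0.101), with RLE size factors (0.0503), without the low-count filter (0.209) and when fitted on the compared groups only (0.0533). The HK2 knockout gained the call without its DMSO replicate 3 (0.0373) and with the replicate number as a block (0.0360).

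CASP8 shares its chromosome 2 neighbourhood with CASP10 and CFLAR, in the order CFLAR, CASP10, CASP8, but had another pattern. In wild type it stood at 20.7, 19.6 and 24.7 CPM in DMSO, 17.9, 7.42 and 16.1 CPM at 6 h, and 20.7, 17.1 and 23.9 CPM at 24 h. The PGP knockout held 25.3, 21.2 and 12.1 CPM at 24 h, against 18.5, 17.0 and 19.3 CPM in DMSO. The HK2 knockout held 18.0, 17.5 and 23.4 CPM at 24 h, against 32.6, 28.0 and 26.3 CPM in DMSO. The HK2 knockout in DMSO stood above every other library, and both the 6 h libraries and those of the PGP knockout in DMSO stood below wild type DMSO. At 24 h the groups overlapped in wild type and in the PGP knockout. At 24 h the change was -0.55 ± 0.24 in the HK2 knockout (edgeR adjusted p = 0.0921), -0.08 ± 0.25 in wild type (0.850) and 0.09 ± 0.25 in the PGP knockout (0.816), with no call. In the HK2 knockout CASP8 passed when fitted on the compared groups only (adjusted p = 0.0189) and without the low-count filter (0.0302). CASP9 passed in that same genotype when only its 2 groups were fitted (0.0332).

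CASP2, the initiator of the PIDDosome, had the narrowest range of group means among the initiators. In wild type it stood at 123, 137 and 124 CPM in DMSO, 106, 113 and 88.7 CPM at 6 h, and 119.6, 92.6 and 83.0 CPM at 24 h. The PGP knockout held 97.2, 111 and 96.4 CPM at 24 h, against 115, 146 and 137 CPM in DMSO. The HK2 knockout held 108, 107 and 86.7 CPM at 24 h, against 125, 112 and 119 CPM in DMSO. Within each genotype every library at 24 h was below every DMSO library, by a small gap in each. The change was -0.38 ± 0.13 in wild type (edgeR adjusted p = 0.0350), -0.39 ± 0.13 in the PGP knockout (0.0309) and -0.24 ± 0.13 in the HK2 knockout (0.193). In wild type the call was lost without DMSO replicate 2 (adjusted p = 0.0958), 24 h replicate 2 (0.0975) or 24 h replicate 3 (0.149). In the PGP knockout it was lost without DMSO replicate 2 (0.133) or 3 (0.0686), or 24 h replicate 1 (0.0731) or 3 (0.0774).

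**Figure D2:**
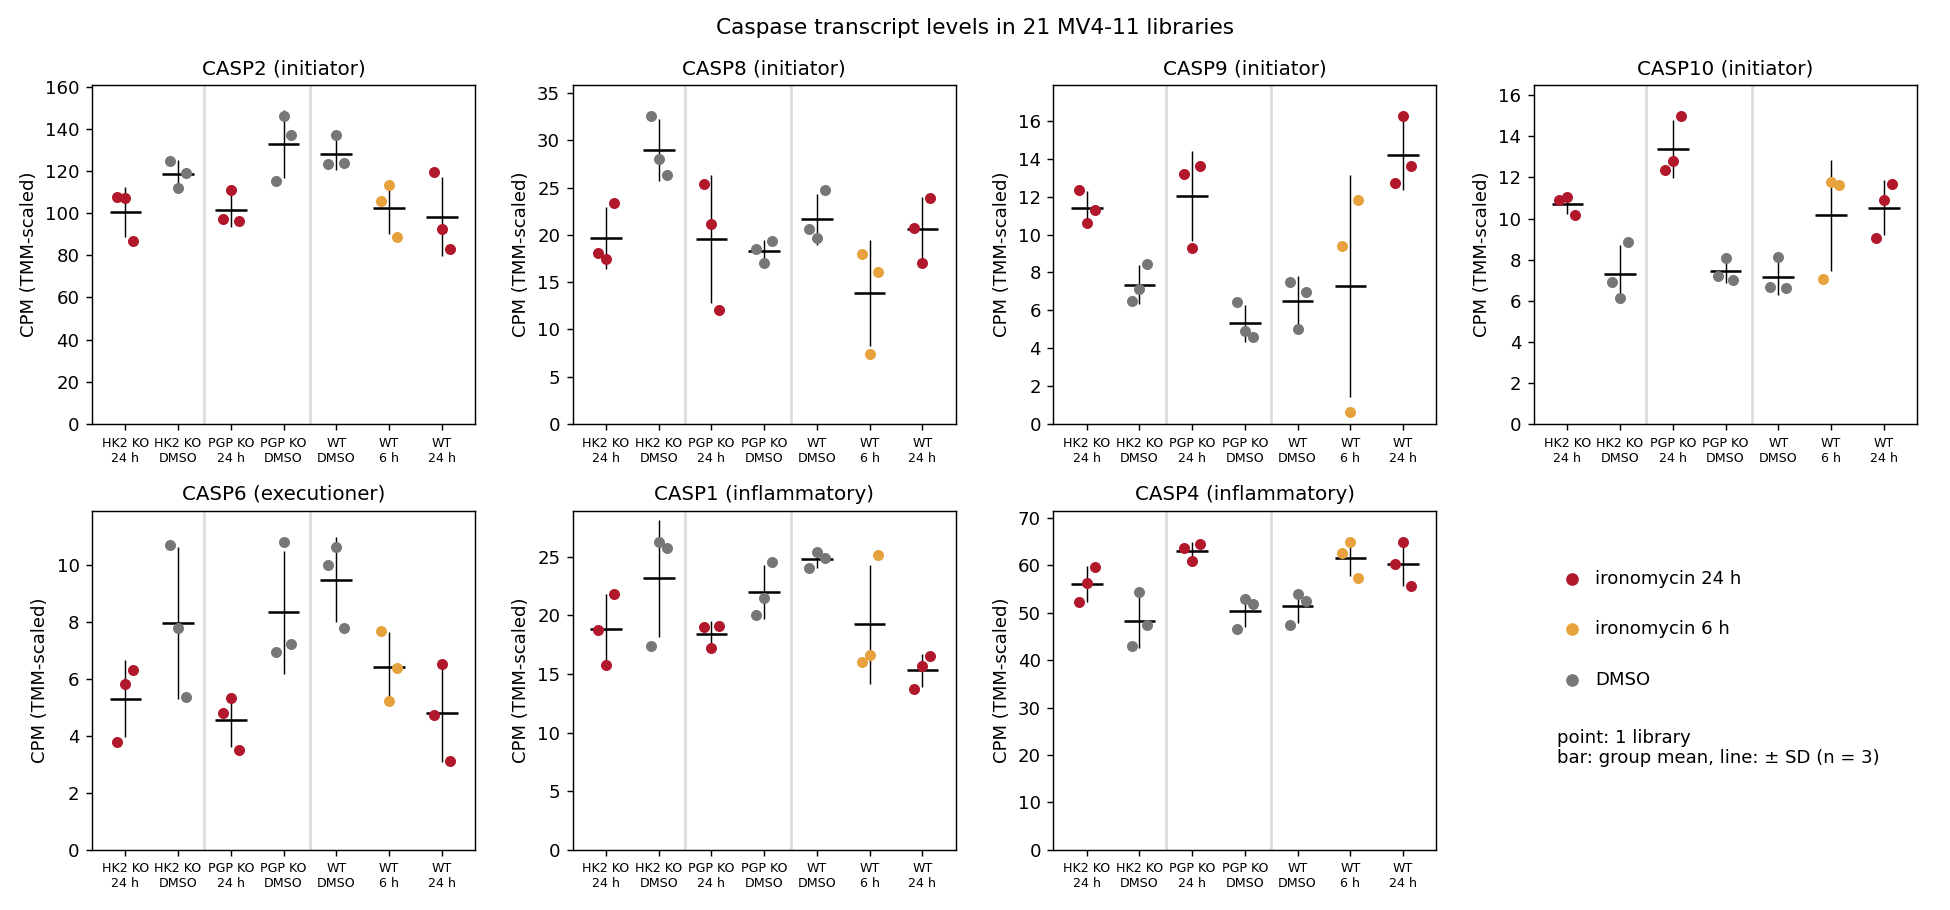
CPM of each caspase in each of the 21 libraries, by group, with points for libraries, bars for the group mean and lines for ± SD. CASP9 and CASP10 at 24 h stand above DMSO in every genotype, and wild type 6 h replicate 2 stands at 0.655 CPM for CASP9 and 7.42 CPM for CASP8.

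CASP6, the executioner of the set, fell at 24 h in wild type and in the PGP knockout. In wild type it stood at 10.0, 10.6 and 7.80 CPM in DMSO, 7.68, 5.24 and 6.37 CPM at 6 h, and 4.72, 6.55 and 3.11 CPM at 24 h. The PGP knockout held 4.82, 5.35 and 3.51 CPM at 24 h, against 6.96, 10.8 and 7.24 CPM in DMSO. The HK2 knockout held 3.8, 5.83 and 6.33 CPM at 24 h, against 10.7, 7.81 and 5.38 CPM in DMSO. The groups were apart in wild type and the PGP knockout and overlapped in the HK2 knockout, whose DMSO libraries were the most spread. The change was -0.98 ± 0.30 in wild type (edgeR adjusted p = 0.0145), -0.89 ± 0.31 in the PGP knockout (0.0311) and -0.56 ± 0.30 in the HK2 knockout (0.169). In wild type the call was lost without DMSO replicate 2 (adjusted p = 0.0505) or 24 h replicate 3 (0.0842). In the PGP knockout it was lost without DMSO replicate 2 (0.178), 24 h replicate 1 (0.0531) or 24 h replicate 3 (0.117).

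CASP1, which matures interleukin-1β, and CASP4 lie near each other on chromosome 11 and moved in opposite directions in the mean response. CASP1 in wild type stood at 24.0, 25.5 and 24.9 CPM in DMSO, 16, 16.6 and 25.1 CPM at 6 h, and 13.8, 15.7 and 16.5 CPM at 24 h. The PGP knockout held 19.1, 17.2 and 19.1 CPM of CASP1 at 24 h, against 20.1, 21.5 and 24.6 CPM in DMSO. The HK2 knockout held 18.8, 15.8 and 21.9 CPM at 24 h, against 17.4, 26.3 and 25.8 CPM in DMSO. The wild type groups were well apart, the PGP knockout groups narrowly so, and the HK2 knockout groups overlapped. The change was -0.69 ± 0.18 in wild type (edgeR adjusted p = 0.00622), -0.30 ± 0.18 in the HK2 knockout (0.226) and -0.26 ± 0.19 in the PGP knockout (0.319). The wild type call was kept without each library in turn. CARD16, a near copy of the start of CASP1 that lies beside it, changed by -0.70 ± 0.26 in wild type at 24 h (edgeR adjusted p = 0.0445), by -0.24 ± 0.26 in the HK2 knockout (0.526) and by 0.04 ± 0.26 in the PGP knockout (0.920). Reads of the pair could be split or shared between them, so the values of both are uncertain.

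CASP4 made the smallest change of the 6 that were called. In wild type it stood at 47.4, 54.1 and 52.6 CPM in DMSO, 62.5, 65.0 and 57.4 CPM at 6 h, and 60.4, 64.9 and 55.6 CPM at 24 h. The PGP knockout held 63.7, 60.9 and 64.5 CPM at 24 h, against 46.5, 52.9 and 51.8 CPM in DMSO. The HK2 knockout held 52.2, 56.4 and 59.6 CPM at 24 h, against 43.1, 54.3 and 47.5 CPM in DMSO. Both wild type treated groups and the PGP knockout at 24 h were above their DMSO libraries, and the HK2 knockout groups overlapped by 1 library on each side. The change was 0.32 ± 0.11 in the PGP knockout (edgeR adjusted p = 0.0317), 0.23 ± 0.11 in wild type (0.122) and 0.21 ± 0.11 in the HK2 knockout (0.159). The call in the PGP knockout was kept only without its DMSO replicate 2 (0.0493), the other omissions giving 0.0645 to 0.154, and was lost when fitted on the compared groups only (0.0677) and without the low-count filter (0.208). The PGP knockout at 24 h also held the most counts of markers of other cell types: its 8 markers summed to 14 CPM, against 7.48 CPM in its DMSO group. KRT8 made up 9.46 CPM at 24 h and 6.15 CPM in DMSO, and the other 7 markers had 63 counts at 24 h and 18 in DMSO, with 3 markers at 0 counts in each group. Over all groups the sum ran between 5.78 CPM in wild type DMSO and 14 CPM, and the part of these transcripts in the results was not tested.

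At 6 h in wild type no caspase passed the test. The count was 0 of 7 with edgeR and 0 with DESeq2, where 22% of tested genes were called, 10.9% higher and 11.1% lower, while 4 of the 7 caspases and 34.4% of tested genes had an unadjusted p under 0.05. These were CASP8 at -0.65 ± 0.25 (edgeR adjusted p = 0.0728), CASP2 at -0.32 ± 0.13 (0.0903), CASP10 at 0.51 ± 0.21 (0.0876) and CASP4 at 0.26 ± 0.11 (0.0936). CASP6 changed by -0.55 ± 0.29 (edgeR adjusted p = 0.176), CASP1 by -0.36 ± 0.18 (0.166) and CASP9 by 0.18 ± 0.42 (0.796). The median of the 7 was -0.32, and of all tested genes 0.02. With the replicate number as a block, CASP8 (adjusted p = 0.0421) and CASP2 (0.0499) passed.

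The 6 h values rest on a group in which 1 library stood apart. Each library was set against the mean of the other 2 of its group. The SD of these log2 deviations over all tested genes was 0.675 in wild type 6 h replicate 2, and 0.332 to 0.480 in the other 20 libraries. In that library CASP9 had 3 counts, where replicates 1 and 3 had 44 and 63. There CASP9 deviated by -3.36 and CASP8 by -1.15 log2 units. Without it CASP9 passed, at 0.70 (edgeR adjusted p = 0.0393), and CASP8 moved to -0.36 (0.307). Without 6 h replicate 1, CASP8 (-0.87, adjusted p = 0.0335) and CASP10 (0.72, 0.0162) passed, and without replicate 3 CASP1 did (-0.60, 0.0265).

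**Figure D3:**
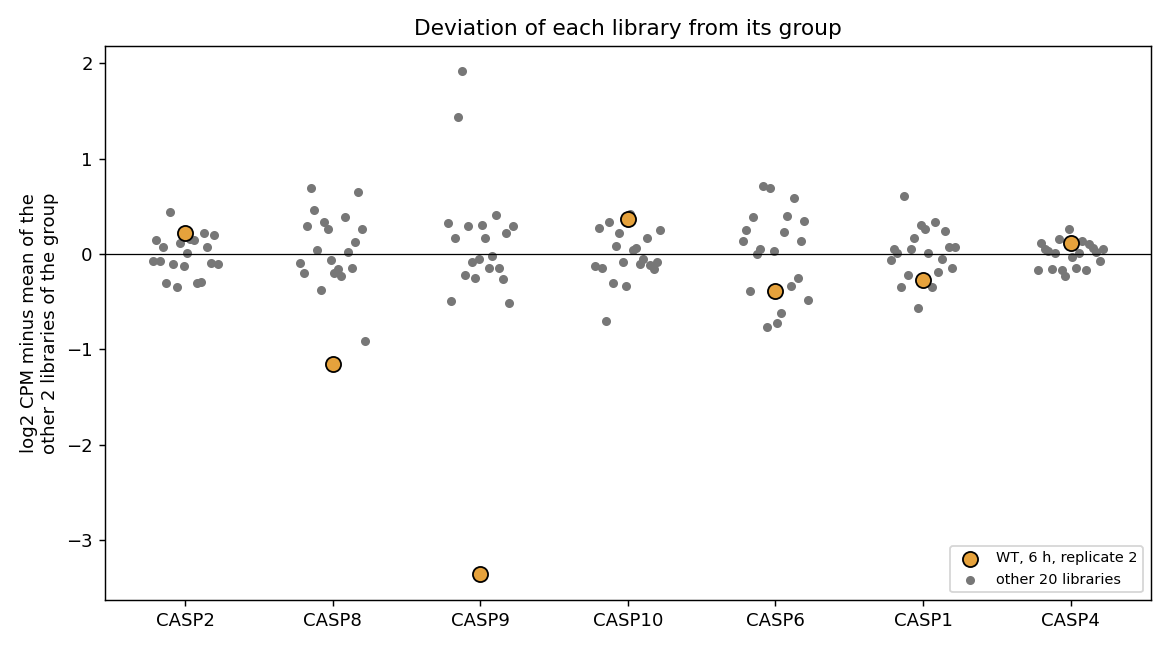
Log2 CPM of each caspase in each library minus the mean of the other 2 libraries of its group. The large point is wild type 6 h replicate 2, which lies at -3.36 for CASP9 and -1.15 for CASP8, and the small points are the other 20 libraries.

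Between 6 h and 24 h, with no DMSO pair for the time in culture, the caspases were also not called. The count was 0 of 7 with edgeR and 0 with DESeq2, where 16.6% of tested genes were called, 8.48% higher and 8.08% lower. An unadjusted p under 0.05 was reached by 2 of the 7 and by 30.3% of tested genes, so the caspases did not exceed the rate of all genes. CASP9 at 24 h was 0.94 ± 0.39 above 6 h (edgeR adjusted p = 0.108) and CASP8 0.57 ± 0.26 above it (0.135). Both differences rest in part on the library that stood apart: without it CASP9 differed by 0.42 and CASP8 by 0.28. Without 6 h replicate 3, CASP9 passed (1.47, edgeR adjusted p = 0.0219), and it did so with the replicate block (0.04997) and without the low-count filter (0.00653). The other 5 caspases differed by -0.42 to 0.05, the ends being CASP6 (95% interval -1.06 to 0.21) and CASP10 (-0.37 to 0.47).

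In DMSO, no caspase differed by the test between either knockout and wild type. In the HK2 knockout against wild type, 0 of 7 were called by edgeR and 0 by DESeq2, where 0.00861% of tested genes were called by edgeR. An unadjusted p under 0.05 was reached by 0 of the 7 and by 5.22% of tested genes. In the PGP knockout the same counts were 0, 0 and 0, where 0% of tested genes were called and 5.58% had an unadjusted p under 0.05. The largest difference was that of CASP8 in the HK2 knockout, at 29.0 ± 3.24 CPM against 21.7 ± 2.69 CPM in wild type (mean ± SD, n = 3 each), with no overlap. The difference was 0.41, with a 95% interval of -0.08 to 0.91 (edgeR adjusted p = 1). CASP8 in the PGP knockout was below wild type in every library, at -0.25 with an interval of -0.77 to 0.27 (edgeR adjusted p = 0.909). Libraries were apart from wild type for 1 of the 7 caspases in each knockout. The same held for 13.8% of all tested genes in the HK2 knockout and 13.1% in the PGP knockout. The intervals of CASP9 were the widest, -0.69 to 1.05 for the HK2 knockout and -1.24 to 0.62 for the PGP knockout, and those of CASP4 the narrowest, -0.32 to 0.14 and -0.26 to 0.21.

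The difference in the 24 h response between each knockout and wild type was not detectable at this depth. For either knockout 0 of 7 caspases were called by edgeR and 0 by DESeq2, where 0% of tested genes were. An unadjusted p under 0.05 was reached by 0 of the 7. It was reached by 2.3% of tested genes for the HK2 knockout and 1.9% for the PGP knockout. A fall of CASP1 called in wild type and not in the knockouts was therefore not shown to differ: its response was 0.39 higher in the HK2 knockout (95% interval -0.15 to 0.93) and 0.44 higher in the PGP knockout (-0.11 to 0.98). In the HK2 knockout the response of CASP9 differed from wild type by -0.49 (-1.67 to 0.68) and that of CASP8 by -0.48 (-1.19 to 0.24). The responses share the wild type libraries, so the differences of the knockouts from wild type are not separate pieces of evidence.

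Set in order of level, most neighbouring groups overlapped. Over the 7 caspases there were 42 pairs of groups next to each other in mean level, and in 4 of them the libraries did not overlap. The share over all tested genes was not worked out, so the count and the pairs below only describe these libraries. CASP8 was highest in the HK2 knockout in DMSO (29.0 ± 3.24 CPM), apart from wild type DMSO. CASP9 had its lowest 24 h mean in the HK2 knockout, 11.4 ± 0.872 CPM, apart from the highest DMSO group at 7.35 ± 1.01 CPM. CASP10 was highest in the PGP knockout at 24 h (13.4 ± 1.42 CPM), apart from the HK2 knockout at 24 h at 10.7 ± 0.472 CPM. CASP1 was lowest in wild type at 24 h (15.3 ± 1.41 CPM), apart from the PGP knockout at 24 h at 18.5 ± 1.08 CPM. For CASP2, CASP6 and CASP4 every neighbouring pair overlapped, although the DMSO groups took the 3 highest places for CASP2 and CASP6 and the 3 lowest for CASP4. The range of the 7 group means, in log2 units, was 1.53 for CASP9, 1.13 for CASP8, 1.00 for CASP6, 0.87 for CASP10, 0.68 for CASP1, 0.44 for CASP2 and 0.39 for CASP4, where the median over tested genes was 0.70. These are ranges of each gene's own level, since 3′ counts do not put different genes on a per-length scale. For CASP9 and CASP8 the low end, in mean log2 CPM, was wild type at 6 h, the group with the library that stood apart.

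Among the genes that act with caspases were larger changes than those of the 7. The lists were tested where the filter allowed: 6 of 8 inhibitors and antagonists, 4 of 5 genes of the death-inducing complex, 11 of 13 of inflammasomes and pyroptosis, 10 of 11 substrates, and all 4 of the apoptosome and PIDDosome and 5 interferon regulators. XAF1, an interferon-induced antagonist of the caspase inhibitor XIAP, rose at 24 h by 2.87 ± 0.19 in wild type (edgeR adjusted p = 5.17e-10), 2.29 ± 0.18 in the HK2 knockout (1.01e-08) and 2.84 ± 0.19 in the PGP knockout (7.03e-10). Its level was 62.5 ± 5.55 CPM in wild type DMSO, 252 ± 4.14 CPM at 6 h and 458 ± 107 CPM at 24 h (mean ± SD, n = 3 each). BIRC5 (survivin), a member of the inhibitor family that also serves in mitosis, fell by 1.82 on the log2 scale in wild type at 24 h (edgeR adjusted p = 3.43e-08), by 1.25 in the HK2 knockout and by 1.23 in the PGP knockout. XIAP itself had a mean of 67.5 CPM in wild type at 24 h, against 51.8 CPM in wild type DMSO. In the same groups BIRC2 had 66.5 against 48.3 CPM, BIRC3 3.7 against 0.166 CPM and BIRC6 46.2 against 47.5 CPM. The genes that rose thus include inhibitors as well as XAF1. Of the 6 tested inhibitors and their antagonists, 4 rose and 1 fell in wild type and in the HK2 knockout. In the PGP knockout 3 rose and 1 fell. Over all tested genes 15.3% rose and 14.6% fell in wild type. The HK2 knockout had 15.9% that rose and 13.5% that fell, and the PGP knockout 16.1% that rose and 15.4% that fell. The medians of the list were 0.42, 0.45 and 0.41, beside 0.03, 0.03 and 0.04 over all tested genes. At 6 h, 3 rose and 1 fell, where 10.9% of tested genes rose and 11.1% fell. Among those that rose was BIRC3, with 39 counts against 3 in DMSO, a ratio of 13.9 (exact 95% interval 4.42 to 70.4, counting error only). Its libraries overlapped: the lowest at 6 h held 0.427 CPM and the highest in wild type DMSO 0.498 CPM.

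In the apoptosome and PIDDosome list, where CASP9 and CASP2 act, 1 gene of 4 was called and it fell. Of all tested genes, 29.8% were called at 24 h in wild type, 29.4% in the HK2 knockout and 31.5% in the PGP knockout. At 6 h 22% were. Whether the count differs from those shares was not tested. CYCS, which encodes the cytochrome c that opens the apoptosome, fell by 0.79 in wild type at 24 h (edgeR adjusted p = 0.00011), by 0.67 in the HK2 knockout (0.00067) and by 0.65 in the PGP knockout (0.000841). At 6 h it fell by 0.94 (3.7e-05, edgeR). The other 3 of the 4 members were not called in these comparisons, and 0 rose. One of them, CRADD, had few counts, 31 in wild type DMSO and 19 in wild type at 24 h. Of other caspases, CASP5 had 0 counts in all groups and CASP14 had 1 count in all.

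The tested partners of CASP8 and CASP10 were mostly not called. FADD, the listed member that was not tested, had at most 3 counts in any group. Of 4 tested members of the death-inducing complex, 0 were called at 6 h, 0 in wild type at 24 h and 0 in the HK2 knockout, and 1 was lower in the PGP knockout. Of all tested genes 22% were called at 6 h. At 24 h 29.8% were called in wild type, 29.4% in the HK2 knockout and 31.5% in the PGP knockout. Whether the counts differ from those shares was not tested. The gene called was CFLAR, which encodes the inhibitor of CASP8 recruitment c-FLIP, at -0.36 ± 0.14 (edgeR adjusted p = 0.0494). In wild type at 24 h CFLAR changed by -0.07 ± 0.14 (0.753, edgeR), and in the HK2 knockout by 0.15 ± 0.14 (0.461). The list's median was 0.03 in wild type, -0.03 in the HK2 knockout and -0.21 in the PGP knockout.

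**Figure D4:**
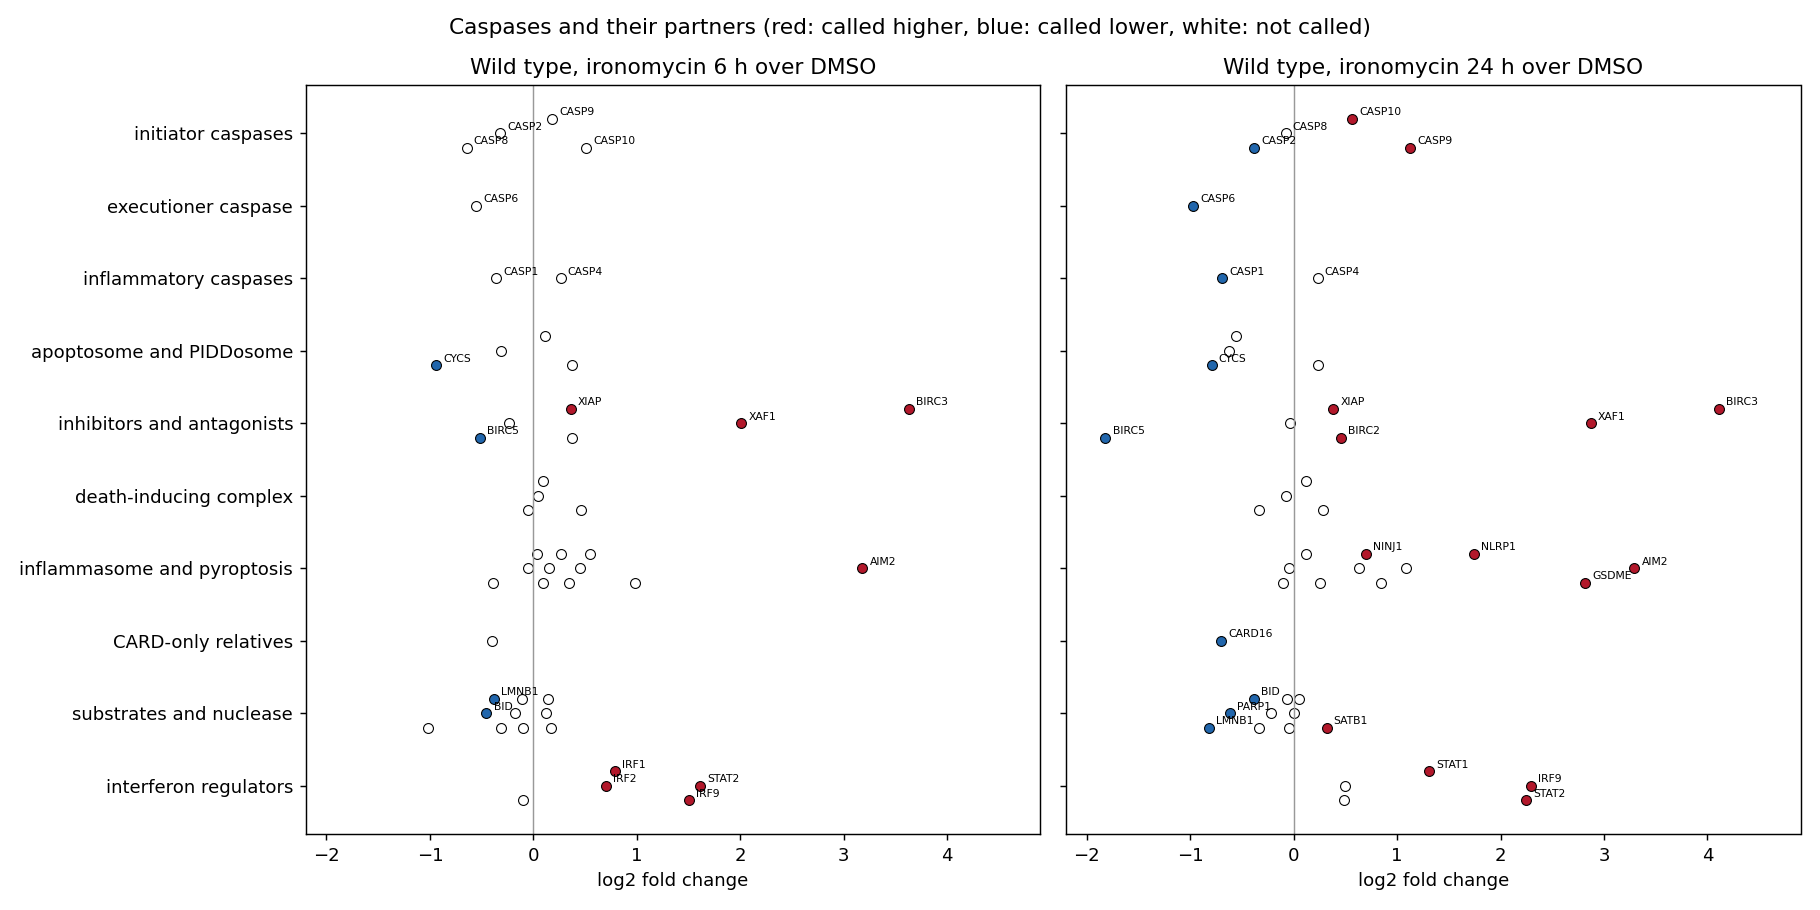
Log2 fold change of each tested gene of the lists shown, in wild type at 6 h (left) and 24 h (right) of ironomycin over DMSO, 1 point per gene, filled where the edgeR adjusted p was under 0.05. At 24 h XAF1 lies at 2.87 and BIRC5 at -1.82, outside the range of the 7 caspases, -0.98 to 1.12. The points of AIM2 and BIRC3 depend on the prior count of the fit, since each had 3 counts in DMSO.

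Genes of inflammasomes and pyroptosis, where CASP1 and CASP4 act, were called higher or not called. Of 11 tested, 4 rose in wild type at 24 h, 5 in the HK2 knockout and 4 in the PGP knockout, and 0 fell, beside 15.3%, 15.9% and 16.1% of tested genes that rose. The medians were 0.70, 0.66 and 0.68. GSDME, a pore-forming gasdermin, rose by 2.82 ± 0.37 in wild type (edgeR adjusted p = 5.03e-06), 2.25 ± 0.41 in the HK2 knockout (0.000212) and 2.19 ± 0.39 in the PGP knockout (0.000139). Its level at 24 h in wild type was 7.38 ± 0.605 CPM, against 1.03 ± 0.210 CPM in DMSO. NINJ1, which ruptures the membrane of dying cells, rose by 0.70 ± 0.14 in wild type (edgeR adjusted p = 0.00054), 0.66 ± 0.14 in the HK2 knockout (0.00129) and 0.96 ± 0.14 in the PGP knockout (2.01e-05). NLRP1, a sensor that recruits CASP1, rose by 1.74 ± 0.42 in wild type (edgeR adjusted p = 0.00276), 2.41 ± 0.47 in the HK2 knockout (0.000475) and 1.79 ± 0.47 in the PGP knockout (0.00527). At 6 h 1 of 11 rose, where 10.9% of tested genes did. It was AIM2, a DNA sensor, with 29 counts against 3 in DMSO (ratio 10.4, exact 95% interval 3.21 to 53.1, counting error only).

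Substrates of caspases were called in both directions. Of 10 tested, 1 rose and 3 fell in wild type at 24 h, 0 rose and 3 fell in the HK2 knockout, and 2 rose and 4 fell in the PGP knockout, where 29.8%, 29.4% and 31.5% of tested genes were called in either direction. LMNB1, a nuclear lamin, fell by 0.82 in wild type (edgeR adjusted p = 2.18e-06), by 0.72 in the HK2 knockout (1.48e-05) and by 0.91 in the PGP knockout (6.36e-07). PARP1, a DNA repair enzyme, fell by 0.62 in wild type, by 0.69 in the HK2 knockout and by 0.55 in the PGP knockout. At 6 h 2 of 10 fell, where 11.1% of tested genes did. They were LMNB1, by 0.38, and BID, which links CASP8 to mitochondria, by 0.45 (edgeR adjusted p = 0.0119). Of 5 interferon regulators tested, 3 rose in wild type at 24 h, 3 in the HK2 knockout and 4 in the PGP knockout, and 0 fell, beside the same shares of all genes as for the inflammasome list. At 6 h 4 of 5 rose, where 10.9% of tested genes did. STAT2 rose by 2.25 ± 0.16 in wild type (edgeR adjusted p = 1.27e-09), 2.11 ± 0.16 in the HK2 knockout (6.05e-09) and 2.15 ± 0.16 in the PGP knockout (3.89e-09). CASP8, whose promoter window holds the interferon and STAT letters shown above, was not called by the edgeR test in any of these.

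Some genes followed a caspase closely over the 7 groups. Likeness was measured as the mean absolute difference of centred log2 group means, over 9136 genes that averaged 5 CPM or more, and smaller is closer. Nearest to CASP9 were PLCG2, at 0.0927, and SULT1A1, at 0.0993, where the median gene was at 0.52. Both stood low at 6 h, at -0.83 and -0.85, as did CASP9 at -0.75, and that group holds the library that stood apart. Nearest to CASP10 were DNAJC3-DT (0.0352) and CAMLG (0.0449), and to CASP6 IPO11 (0.0376) and SAAL1 (0.0444). CASP8 was followed by GTF2H5 (0.0640) and NRAS (0.0706), and CASP1 by KIFBP (0.0420) and ZNF138 (0.0458). The 6 h group was also the lowest for GTF2H5, at -0.705, NRAS, at -0.582, and CASP8, at -0.581. The flatter CASP2 and CASP4 had the closest, C19orf53 (0.0226) and TATDN2 (0.0245) for CASP2, and CBR4 (0.0192) and DGKD (0.0253) for CASP4. The median gene was also nearer to these members, at 0.226 for CASP2 and 0.223 for CASP4. It was at 0.324 for CASP10, 0.368 for CASP6, 0.297 for CASP8 and 0.245 for CASP1. The genes named were picked as the nearest, so their small values follow from that choice. The likenesses are descriptions over 7 points that share libraries and depth.

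The line and the knockouts were checked by their own transcripts. Of 9 markers of the line, 7 passed the filter, HOXA9 among them at 52.7 to 65.5 CPM in group means, while the group means of LYZ were at most 1.68 CPM. IGLL1, a B-lymphoid marker, stood at 35.4 ± 14.6 CPM in wild type DMSO, 32.4 ± 6.70 CPM at 6 h and 2.87 ± 0.585 CPM at 24 h. HK2 stood at 22 ± 2.49 CPM in the HK2 knockout against 52.6 ± 14.7 CPM in wild type, and PGP at 75.4 ± 7.10 CPM in the PGP knockout against 90.6 ± 4.49 CPM, all in DMSO. Counts at the 3′ end need not be lost with a small edit, so they check neither knockout.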

How the data were processed

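Messenger RNA of 21 MV4-11 libraries was made with the Lexogen QuantSeq 3′ kit, per the labels' protocols. Per the submitters' processing notes, the tools were bcl2fastq 2.20.0.422, HISAT2 and HTSeq, and the genome build was hg19. The authors deposited raw counts per Ensembl gene. The strand setting is not given in the sources used here, so overlapping and antisense genes are uncertain, and a 3′ count says nothing of isoforms.

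Gene names came from GENCODE 29 and promoter sequences from RefSeq (GRCh38.p14), neither used for coordinates of the counts. Counts were fitted in edgeR 4.0.16 (R 4.3.3, limma 3.58.1): TMM, filterByExpr by group (minimum count 10, minimum total 15), and a quasi-likelihood fit of all 21 libraries using 7 group means, with a common biological coefficient of variation of 0.149. Calls needed a p under 0.05 after Benjamini-Hochberg adjustment over 11610 genes. The pipeline was tested on simulated data. No 2 replicates agreed within sampling noise (lowest chi-square per degree of freedom 3.79).

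Other settings were RLE size factors, no filter, DESeq2 1.42.0, a replicate block, the compared groups alone, and each library left out. Only between 24 h and DMSO in the PGP knockout did deviations of same-numbered libraries correlate above 0.1 in every pair (0.243, 0.164 and 0.247), which comes from the data and not from the labels. The values reported are from the fit without the block, and the block changed no caspase call there. The members and gene lists were chosen with earlier results of these data known. All 7 caspases are named in each comparison. From each pathway list up to 2 called genes per comparison, by adjusted p, were eligible to be named, or where none was called the one with the highest mean. CASP5 and CASP14 were added, as were the levels of XIAP, BIRC2, BIRC3 and BIRC6 at 24 h. Some listed genes are not reported here. Likeness used log2 CPM with a prior count of 2. The text names some of these. Tables and figures were made in Python 3.11.15 (matplotlib 3.10.9, numpy 2.4.6, pandas 2.3.3).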

Additional observations from a re-analysis of the deposited data

How the results depend on the processing

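Across the settings other than leaving out a library, 327 of 343 single-caspase values kept their direction and their side of the threshold, 6 lost a call, 9 gained one and 1 uncalled value changed sign: the CASP2 response of the PGP knockout minus wild type was 0.009 without the low-count filter, and -0.008 in the fit reported. No called value changed sign under any setting. The count of caspases called moved in 5 comparisons. At 24 h in wild type it was 4 with RLE size factors, DESeq2, no filter or the compared groups alone, against 5. In the PGP knockout at 24 h it was 4 with no filter or the compared groups alone, against 5. In the HK2 knockout at 24 h it was 2 in the compared groups alone, 1 without the filter and 1 with the replicate block, against 0. At 24 h against 6 h in wild type it was 1 without the filter and 1 with the block, against 0. At 6 h it was 1 without the filter and 2 with the block, against 0. The block changed no other call. Over all tested genes the same settings gave 3304 to 3968 calls in wild type at 24 h, against 3465. They gave 3492 and 3602 in the PGP knockout against 3661, and 3615, 3229 and 3885 in the HK2 knockout against 3418. For 24 h against 6 h they gave 2030 and 2514 against 1922, and at 6 h 2549 and 3098 against 2556. Without the filter 25109 genes were tested. Without 1 library, 0 to 2 caspases were called at 6 h, 1 to 4 at 24 h in wild type, 0 to 1 at 24 h against 6 h, 0 to 1 in the HK2 knockout and 1 to 4 in the PGP knockout. The counts of caspases were 0 throughout for the knockouts in DMSO and for the differences in response. Over all tested genes, leaving out 1 library gave 1776 to 2594 calls at 6 h, against 2556 in the fit reported. At 24 h in wild type it gave 2787 to 3020 against 3465. It gave 2663 to 2994 in the HK2 knockout against 3418, and 2874 to 3227 in the PGP knockout against 3661. For 24 h against 6 h it gave 1271 to 2220 against 1922. The causes of these moves were not tested.

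Leaving out 1 library changed the sign of 45 of 462 values, none of them called. For the HK2 knockout against wild type in DMSO the log2 values ran CASP1 -0.20 to 0.069 and CASP10 -0.13 to 0.15. For the response of the HK2 knockout minus wild type the log2 values ran CASP10 -0.13 to 0.15 and CASP4 -0.088 to 0.080. For the PGP knockout against wild type in DMSO the log2 values ran CASP10 -0.004 to 0.16, CASP2 -0.022 to 0.14 and CASP4 -0.077 to 0.027. For wild type at 24 h against 6 h the log2 values ran CASP10 -0.17 to 0.17, CASP2 -0.24 to 0.025 and CASP4 -0.11 to 0.009. For the response of the PGP knockout minus wild type the log2 values ran CASP2 -0.11 to 0.15, CASP6 -0.14 to 0.38, CASP8 -0.077 to 0.43 and CASP9 -0.040 to 0.22. For the PGP knockout at 24 h against DMSO the log2 values ran CASP8 -0.17 to 0.33. For wild type at 24 h against DMSO the log2 values ran CASP8 -0.23 to 0.026. For wild type at 6 h against DMSO the log2 values ran CASP9 -0.37 to 0.70.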
